A study of Homo sapiens with 8 samples.

Results

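Histones H1 and H2 were followed through 5 genes, H1-2, H1-10, H2AX, H2AZ1 and H2BC21, on oligonucleotide arrays of PC3 and LNCaP human prostate cancer cells. The probe sets taken were those that the platform annotation gives exactly 1 gene symbol, equal to one of these names. They were 37018_at for H1-2, 33352_at for H2BC21, 40195_at for H2AX, 39337_at for H2AZ1, and 319_g_at and 318_at for H1-10. That rule found 6 of the 12558 probe sets tested, since H1-10 has 2, and 5 of the 8226 genes that such probe sets name. These genes were selected on measured values of the same arrays. Which values is not recorded, so the changes with Notch1 and the differences between lines both count as used. Every change at a member is therefore given as a description, with its standard error and without its p-value. How many of them passed the test used for all probe sets is given beside the share of all probe sets that did, and nothing is read from it.

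PC3 cells, a line from a bone metastasis that grows without androgen, and LNCaP cells, an androgen-responsive line from a lymph node metastasis, carried either activated Notch1, a receptor form that needs no ligand to signal, or green fluorescent protein (GFP) as the control. Each of the 4 groups (GFP and Notch1 in PC3, and the same in LNCaP) had 2 arrays, so n = 2 stands behind every group mean and limits its precision. The comparison asks how these cells respond to an acute Notch signal. The methods state that a pair of chips was made from each sample, so the spread between arrays may be technical, and the vector that carried Notch1 into the cells used for the arrays is not clearly stated. In RNA from whole cultures, a smaller number of expressing cells and less RNA per cell cannot be told apart.

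Core histones of the families H2A, H2B, H3 and H4 form the nucleosome around which DNA winds, and linker histones of the H1 family bind where the DNA enters and leaves it. Replication-dependent histone genes, to which H1-2 and H2BC21 belong, lie in clusters, are transcribed mainly in S phase and give mRNAs that as a rule end in a stem-loop in place of a poly(A) tail. Replacement or variant histones are made outside the clusters and mostly carry a poly(A) tail. H1-10 is a linker variant, H2AZ1 encodes the variant H2A.Z that marks promoters, and H2AX encodes the variant that is phosphorylated at DNA breaks. H2AX is known to give both stem-loop and polyadenylated mRNA. The labelled RNA was primed with oligo-dT, so a stem-loop mRNA without a tail is poorly captured, and the share of such mRNA lost was not measured.

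The DNA just upstream of the genes that changed most in LNCaP is shown because replication-dependent and variant promoters share short motifs. Each sequence is the 250 bases before the annotated start of transcription in RefSeq, assembly GRCh38.p14, read 5′ to 3′ on the strand of the gene, which is the minus strand in all 5 genes. The H1-2 stretch lies at chr6:26056471-26056720, the H2AX stretch at chr11:119095466-119095715 and the H2BC21 stretch at chr1:149886683-149886932. Capitals mark the letters CCAAT (the CCAAT box, bound by the factor NF-Y), ATTTGCAT (the octamer of H2B promoters, bound by OCT1) and TATAAA (the TATA box), searched on both strands.
H1-2: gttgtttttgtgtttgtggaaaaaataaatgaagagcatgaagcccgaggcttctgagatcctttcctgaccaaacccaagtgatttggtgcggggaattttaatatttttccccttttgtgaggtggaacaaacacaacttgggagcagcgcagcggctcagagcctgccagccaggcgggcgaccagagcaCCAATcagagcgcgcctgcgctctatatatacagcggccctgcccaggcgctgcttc
H2AX: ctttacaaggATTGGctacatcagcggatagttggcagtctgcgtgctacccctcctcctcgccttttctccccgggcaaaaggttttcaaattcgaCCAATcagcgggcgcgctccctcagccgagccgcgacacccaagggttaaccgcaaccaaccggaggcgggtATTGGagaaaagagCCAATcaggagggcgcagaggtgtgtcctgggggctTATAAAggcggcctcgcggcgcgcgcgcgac
H2BC21: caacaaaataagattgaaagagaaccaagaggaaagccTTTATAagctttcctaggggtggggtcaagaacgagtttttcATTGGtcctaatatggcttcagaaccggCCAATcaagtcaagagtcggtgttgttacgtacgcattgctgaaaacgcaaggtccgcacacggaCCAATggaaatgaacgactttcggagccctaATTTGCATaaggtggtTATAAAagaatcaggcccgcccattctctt

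The H1-2 stretch held 1 CCAAT box, 57 to 53 bases before the start, and no TATAAA. The H2AX stretch held 4 CCAAT boxes and a TATAAA at 31 to 26 bases before the start. The H2BC21 stretch held 3 CCAAT boxes, the octamer at 46 to 39 bases and a TATAAA at 30 to 25 bases, with a second TATAAA farther upstream. Of the members not shown, H2AZ1 held 3 CCAAT boxes and H1-10 none, and each had a TATAAA at 31 to 26 bases before the start. CCAAT was present in 32% of all 35116 promoter stretches of this length and in 83.5% of 97 histone promoters, the octamer in 1.63% and 28.9%, and TATAAA in 10.7% and 53.6%. The E2F-type letters TTTCGCGC (0.439% of all promoters) and TTTGGCGC (0.55%) and the RBPJ-type letters GTGGGAA (5.43%), RBPJ being the DNA-binding partner of Notch, were not in any of the 5 stretches. A match is a description of the letters, and a missing match says nothing of the factor.

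Arrays of a group correlated across probe sets at 0.995 to 0.998. The array medians were log2 5.95 to 6.01 in PC3 and 6.28 to 6.36 in LNCaP. HES1, a direct Notch target, rose by 2.56 in PC3 (limma, adjusted p = 4.22e-07) and by 2.78 in LNCaP (adjusted p = 3.12e-07). The mean difference between the 3′ and 5′ probe sets of GAPDH, a sign of RNA length, was 0.02 in PC3 GFP, -0.06 in PC3 Notch1, 0.56 in LNCaP GFP and 0.38 in LNCaP Notch1, and its part in the results that follow was not tested. In control cells the LNCaP markers measured (KLK3, KLK2 and TMPRSS2) were higher in LNCaP and all 5 PC3 markers were lower in LNCaP. Of 4 stromal and 4 leukocyte markers measured, none changed with Notch1 in either line. The line markers did: all 3 LNCaP markers fell in LNCaP (-1.51 to -0.75) and 4 of 5 PC3 markers rose in PC3 (0.68 to 1.18). Their part in the results that follow was not tested.

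In GFP control cells, 5 of the 6 probe sets were higher in LNCaP than in PC3 and H2AX was lower. All 6 passed the adjusted p of 0.05 used for calls, as did 58.8% of all probe sets (40.3% higher and 18.5% lower), which for genes selected on these values is a description. The lines may not have been normalised together, and the median of all probe sets differed by 0.22 between the lines (-0.065 after median centring and -0.045 after quantile normalisation), so levels between the lines are read against that shift. H2BC21, a core H2B gene, differed most, at 4.70 and 4.97 (log2 level) on the PC3 GFP arrays and 6.88 and 7.08 on the LNCaP GFP arrays. Its LNCaP minus PC3 difference was 2.14 ± 0.138 (SE). Both PC3 values were under log2 5, near background, and with a floor there the difference was 1.98. With each array set to a common median it was 1.86.

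H1-2, the other replication-dependent gene, lay at 6.0 and 6.21 in PC3 GFP and at 7.24 and 7.39 in LNCaP GFP, a difference of 1.21 ± 0.123. The linker variant H1-10 differed by 0.83 ± 0.109 on 319_g_at and by 0.85 ± 0.124 on 318_at, and H2AZ1 by 0.78 ± 0.179. H2AX lay at 8.53 and 8.53 in PC3 GFP against 8.14 and 8.22 in LNCaP GFP, a difference of -0.35 ± 0.117. The H2AX call was lost when any of the 4 GFP arrays was left out (-0.39 to -0.31), and the H2AZ1 call was lost when values under log2 5 were raised to log2 5. No H2AZ1 value lay under log2 5, and that floor left its difference at 0.78. Of the PC3 GFP arrays, leaving out replicate 1 gave an H2AZ1 difference of 0.48 and leaving out replicate 2 gave 1.07. With the medians set equal, the differences were 0.93 for H1-2, 0.55 and 0.57 for the H1-10 probe sets, 0.50 for H2AZ1 and -0.63 for H2AX.

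**Figure D1:**
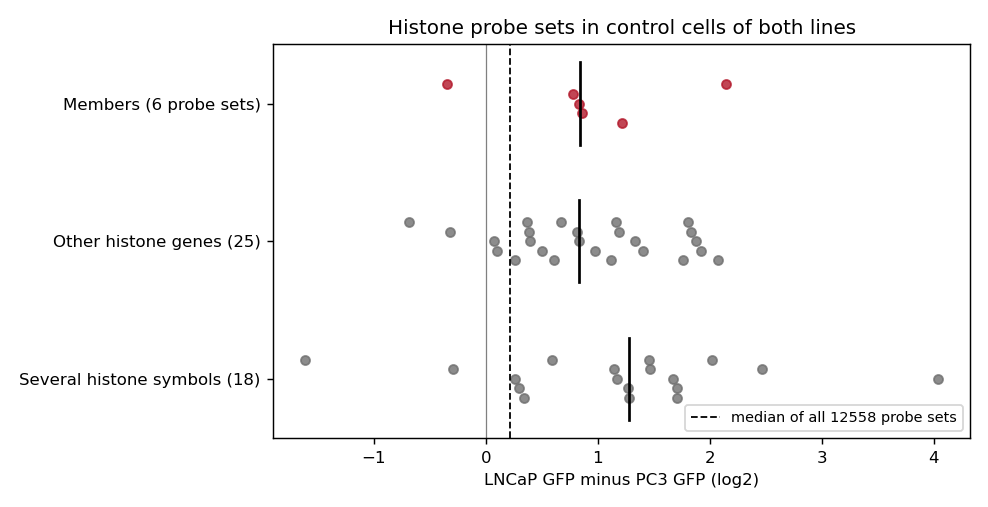
Difference between LNCaP GFP and PC3 GFP (log2, horizontal axis) for the 6 member probe sets, 25 other histone genes and 18 probe sets that the annotation ties to several histone genes. Each point is a probe set, the bar in each row is its median, and the dashed line is the median of all 12558 probe sets (0.22). The member points run from -0.35 (H2AX) to 2.14 (H2BC21), and the median of the other histone genes was 0.83.

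With activated Notch1, H1-2 and H2AX were higher and H2BC21 was lower in LNCaP, whereas in PC3 none of the 6 member probe sets was called. The counts given next describe genes selected on these values and test nothing. In LNCaP 3 of 6 were called, where 17.3% of all probe sets were called (8.01% higher and 9.32% lower). The effects of the lines differed in 3 of 6, higher in LNCaP for H1-2 and H2AX and lower for H2BC21, where 14.2% of all probe sets were called (6.49% higher and 7.67% lower). In PC3 none of the 6 was called, where limma called 6.2% of all probe sets (4.19% higher and 2.01% lower). Both Notch1 arrays lay outside the range of both GFP arrays for 6 of 6 probe sets in LNCaP (57% of all probe sets, 32.9% above and 24.1% below) and for 5 of 6 in PC3 (56%, 20.6% above and 35.4% below).

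H1-2, a somatic linker histone, lay at 7.24 and 7.39 (log2 level) on the LNCaP GFP arrays and at 9.14 and 9.14 on the LNCaP Notch1 arrays. The rise was 1.82 ± 0.123 (SE), 3.54-fold, with a 95% interval of 1.55 to 2.10, and it ranked 95 among the rises of all probe sets in LNCaP. In PC3 the levels were 6.0 and 6.21 with GFP and 5.89 and 5.99 with Notch1, a difference of -0.16 ± 0.123 with an interval of -0.44 to 0.11. These PC3 levels lay near the array medians (5.95 to 6.01), and whether they were above background was not tested. The LNCaP effect exceeded the PC3 effect by 1.99 ± 0.174. Over the alternatives tried, the LNCaP rise ranged from 1.75 to 1.96.

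H2AX lay at 8.14 and 8.22 with GFP and at 9.73 and 9.52 with Notch1 in LNCaP. The rise was 1.45 ± 0.117, 2.73-fold, and ranked 149 among the rises. The PC3 arrays lay at 8.53 and 8.53 with GFP and at 8.46 and 8.48 with Notch1, a difference of -0.06 ± 0.117 (interval -0.32 to 0.20). The LNCaP effect exceeded the PC3 effect by 1.51 ± 0.166. The control level of H2AX was lower in LNCaP than in PC3, and its level with Notch1 was the highest of the 4 groups.

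H2BC21 lay at 6.88 and 7.08 with GFP and at 5.82 and 5.67 with Notch1 in LNCaP. The level fell by 1.23 ± 0.138, 2.35-fold lower, and ranked 123 among the falls. In PC3 it lay at 4.70 and 4.97 with GFP and at 4.68 and 4.53 with Notch1, a difference of -0.23 ± 0.138 (interval -0.54 to 0.08). All 4 of these PC3 values were under log2 5, and a floor at log2 5 set this difference to 0.00. The LNCaP effect minus the PC3 effect was -1.002 ± 0.195. The other replication-dependent member, H1-2, moved the opposite way in LNCaP.

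**Figure D2:**
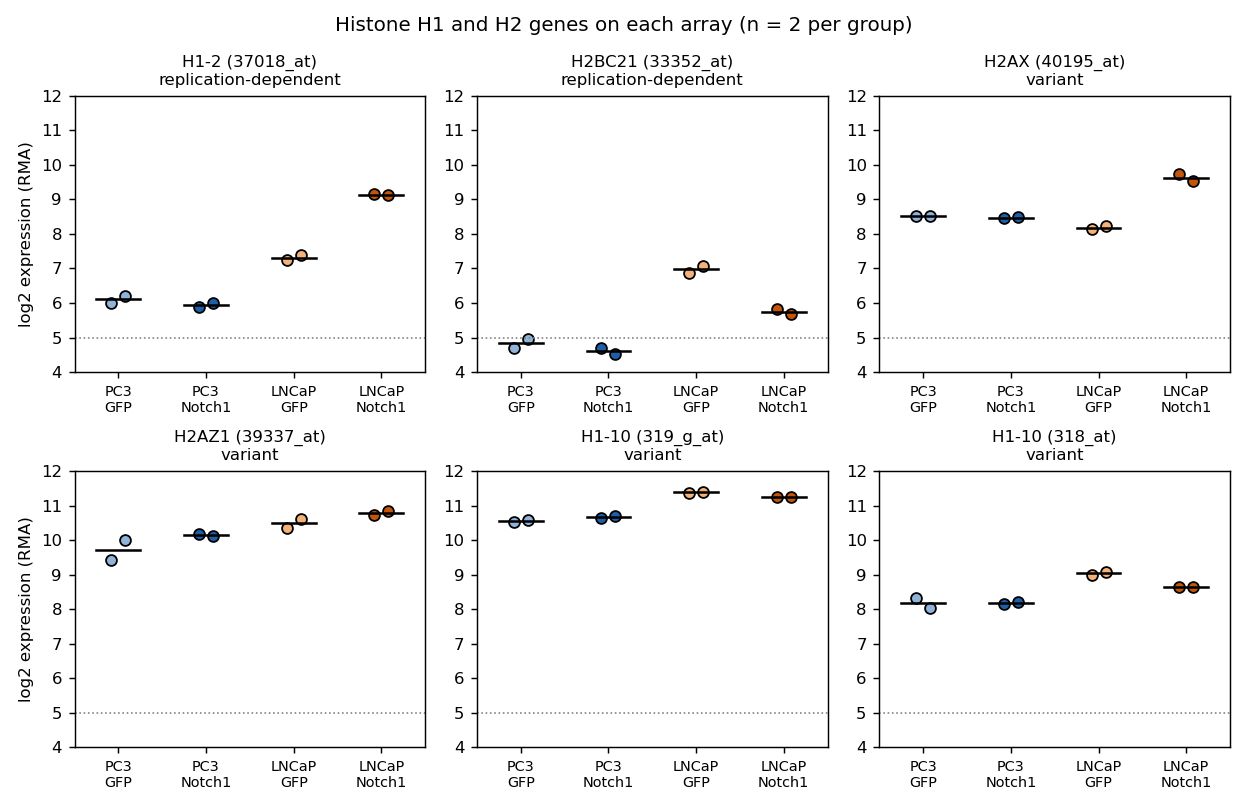
Level (log2 expression, vertical axis) of each of the 6 member probe sets on every array, by group (horizontal axis). Points are single arrays, n = 2 per group, bars are group means and the dotted line marks log2 5. In LNCaP, H1-2 and H2AX are higher on both Notch1 arrays than on both GFP arrays and H2BC21 is lower, while H2BC21 in PC3 lies under log2 5 on all 4 arrays.

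The variants H1-10 and H2AZ1 had no called change in either line. On 319_g_at H1-10 lay at 10.54 and 10.57 with GFP and 10.64 and 10.70 with Notch1 in PC3, and at 11.37 and 11.41 against 11.24 and 11.25 in LNCaP. The differences were 0.12 ± 0.109 in PC3 and -0.14 ± 0.109 in LNCaP. On 318_at the levels were 8.32 and 8.05 against 8.16 and 8.21 in PC3, with overlapping arrays, and 9.005 and 9.07 against 8.65 and 8.64 in LNCaP. Those differences were 0.00 ± 0.124 (PC3; -0.05 after quantile normalisation) and -0.39 ± 0.124 (LNCaP, interval -0.67 to -0.12). The LNCaP value of 318_at passed the threshold in 5 of 14 alternatives, among them the replicate block (-0.39) and the common median (-0.45), and also without PC3 GFP replicate 1 or PC3 GFP replicate 2 (-0.39 each).

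H2AZ1 lay at 9.42 and 10.01 with GFP and at 10.18 and 10.12 with Notch1 in PC3, and at 10.37 and 10.62 against 10.74 and 10.85 in LNCaP. The Notch1 arrays were higher than the GFP arrays in both lines, by 0.44 ± 0.179 in PC3 (interval 0.04 to 0.83) and by 0.30 ± 0.179 in LNCaP (interval -0.09 to 0.70). The PC3 GFP arrays differed from each other by more than the mean change. Without PC3 GFP replicate 2 the PC3 difference was 0.73 and was called, and without PC3 GFP replicate 1 it was 0.14. The difference between the lines was -0.13 ± 0.253 and turned to 0.08 after quantile normalisation.

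**Figure D3:**
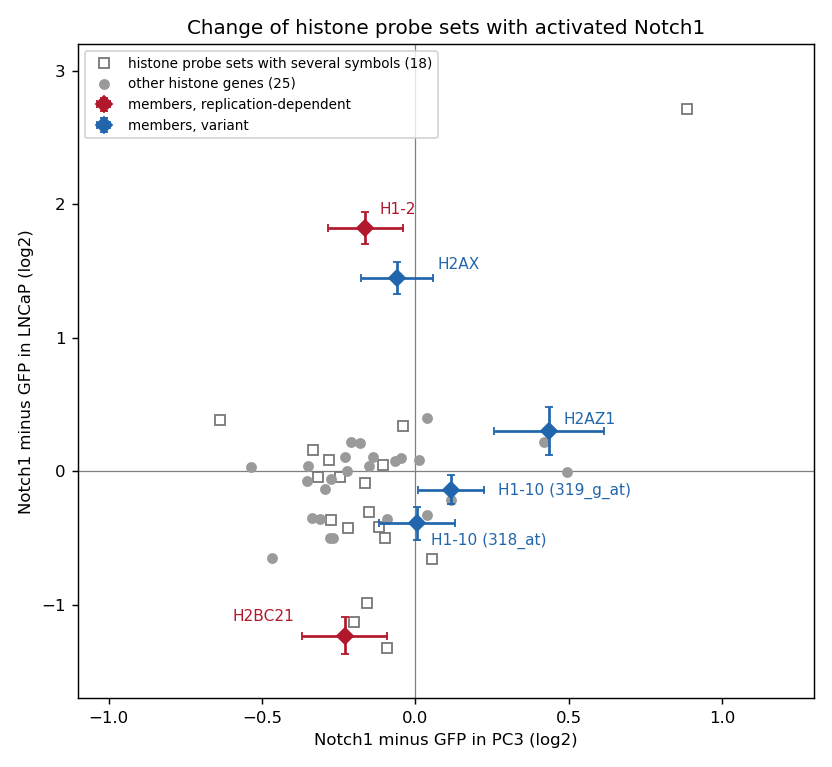
Change with activated Notch1 in PC3 (horizontal axis) against LNCaP (vertical axis), both in log2. Coloured diamonds are the member probe sets with SE bars, grey circles are 25 other histone genes and open squares are 18 probe sets tied to several histone genes. H1-2, H2AX and H2BC21 lie far from 0 in LNCaP and near 0 in PC3, and the open square at 0.88 and 2.72 is 39969_at.

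Of 112 further histone genes listed, 25 had a probe set with a single symbol, of which 22 are replication-dependent. In LNCaP, 2 of these 25 were called, both lower, beside 9.32% of all probe sets, and 23 were not, with a median difference of 0.00 and a range of -0.65 to 0.40. H2AC8, a replication-dependent H2A gene, fell by 0.65 (adjusted p = 0.0197), and H2BC14, an H2B gene, fell by 0.50 (adjusted p = 0.0232). Both calls were lost with the floor at log2 5, without LNCaP GFP replicate 2 (-0.42 and -0.50) and without LNCaP Notch1 replicate 2 (-0.53 and -0.36), and that of H2BC14 also without LNCaP GFP replicate 1 (-0.49). Neither gene had a value under log2 5, and the floor left both differences unchanged (-0.65 and -0.50). A probe set such as that of H2BC14, whose name ends in f, may take up signal of other family members. In PC3 limma called 0 of 25 (4 with an unadjusted p under 0.05), with a median of -0.21 and a range of -0.54 to 0.50. By class the PC3 medians were -0.23 for the 22 replication-dependent genes (4 above 0) and 0.42 for the 3 variants (2 above 0). The LNCaP medians were -0.03 and 0.10. Among the variants, H2AP lay under log2 5 on every array. A second probe set of the variant H2AZ2 differed by 0.59 in PC3 and by -0.34 in LNCaP, neither called. Several replication-dependent genes lay under log2 5 in PC3, among them H3C4 (-0.54). In LNCaP GFP against PC3 GFP, 19 of 25 were higher and 1, the linker gene H1-4, was lower, beside 40.3% and 18.5% of all probe sets. The medians of this difference were 0.90 for the replication-dependent genes and 0.50 for the variants.

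A further 18 probe sets carry the symbols of several histone genes and cannot be given to 1 gene, because near-identical copies share probes. In LNCaP 1 of them rose and 6 fell, beside 8.01% and 9.32% of all probe sets. In PC3 1 rose and 1 fell, beside 4.19% and 2.01%. Those named here were chosen after their values were seen. Probe set 39969_at, tied to 14 H4 symbols, lay at 7.18, 6.87, 7.97 and 7.85 in PC3 (GFP, then Notch1) and at 5.29, 5.53, 8.26 and 7.99 in LNCaP. It rose by 0.88 in PC3 (adjusted p = 0.00749) and by 2.72 ± 0.153 in LNCaP (adjusted p = 1.87e-06), and the PC3 call was lost with the floor at log2 5 and without PC3 Notch1 replicate 1 (0.83) or replicate 2 (0.94). The floor left the PC3 difference of 39969_at at 0.88. For the other 4 probe sets of several H4 genes, the LNCaP differences ran from -0.43 to 0.38. Among them 33049_at, under log2 5 on all 8 arrays, was lower in PC3 (-0.64, adjusted p = 0.0285). In LNCaP, 32609_at, tied to H2A and H2B genes, fell by 1.32 (adjusted p = 0.000789), 286_at, tied to H2A genes, fell by 1.13 (adjusted p = 0.000331), and 36757_at, tied to 10 H3 genes, fell by 0.99 (adjusted p = 0.0014). In PC3 these differed by -0.09, -0.20 and -0.16. Every PC3 value of 36757_at was under log2 5, and a floor there set its PC3 difference to 0.00.

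Genes that serve histone supply were listed by role, and 39 of 54 had a single-symbol probe set. In LNCaP 9 rose and 2 fell, with a median of 0.12, beside 8.01% and 9.32% of all probe sets. In PC3 2 rose and none fell, beside 4.19% and 2.01% of all probe sets. Of 10 H3-H4 chaperones measured, 4 rose and 2 fell in LNCaP. CHAF1A, the large subunit of the chromatin assembly factor that works at replication forks, rose by 1.26 ± 0.130 in LNCaP (adjusted p = 8.36e-05) and differed by 0.17 in PC3. ASF1A, which hands H3-H4 to assembly factors, fell by 0.98 in LNCaP (adjusted p = 0.000593). ATRX, which helps place the variant H3.3, fell by 0.85 (adjusted p = 0.00633). That call was lost with the floor and without LNCaP Notch1 replicate 1 (-0.74). Of its other 3 probe sets, the one with a mean of log2 7.63 fell by 0.88 in LNCaP (adjusted p = 0.00387). The rest, near background with means of log2 2.52 and 2.85, differed by -0.09 and 0.05. The other genes that rose, NASP (0.80), DAXX (0.57) and CHAF1B (0.48) in LNCaP and DAXX (0.72) in PC3, were named after their values were seen.

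Of 7 measured genes of H2A.Z exchange, 1 rose in LNCaP, where 8.01% of all probe sets did. ANP32E, which removes H2A.Z from nucleosomes, rose there by 1.86 ± 0.161 (adjusted p = 2.26e-05), while in PC3 the difference was 0.44 (adjusted p = 0.131), at 0.20 without PC3 GFP replicate 1 and called without PC3 GFP replicate 2 (0.68). Its second probe set rose by 2.17 in LNCaP and by 0.83 in PC3 (adjusted p = 0.0411). VPS72, a subunit of the H2A.Z loading complex, differed by 0.10 in PC3 and by 0.05 in LNCaP (-0.01 with the medians set equal). Of 8 genes that phosphorylate or read H2AX, 4 rose in LNCaP, beside 8.01% of all probe sets. None rose in PC3 (0 with an unadjusted p under 0.05, by limma), beside 4.19%. BRCA1 rose by 0.73 (adjusted p = 0.00256), TOPBP1 by 0.64 (adjusted p = 0.00619), TP53BP1 by 0.53 (adjusted p = 0.0189) and MDC1, which binds phosphorylated H2AX, by 0.50 (adjusted p = 0.0248). The calls of TP53BP1, MDC1 and BRCA1 were lost with the floor at log2 5 (BRCA1 0.13), which left the TP53BP1 and MDC1 differences unchanged. A second TP53BP1 probe set differed by 0.02, and a second MDC1 probe set rose by 0.88 (adjusted p = 0.000904). All BRCA1 probe sets were near background. The one used lay under log2 5 on every PC3 and LNCaP GFP array and at 5.24 and 5.03 with Notch1 in LNCaP. The others (means log2 3.81 and 3.75) rose by 1.17 and 1.44. The TP53BP1 call was also lost without LNCaP GFP replicate 2 (0.40), LNCaP Notch1 replicate 1 (0.47) or LNCaP Notch1 replicate 2 (0.59). The MDC1 call was also lost without LNCaP GFP replicate 1 (0.56), LNCaP GFP replicate 2 (0.44) or LNCaP Notch1 replicate 1 (0.35).

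In mRNA end processing, 0 of 5 measured genes were called in either line by limma (2 in PC3 and 1 in LNCaP with an unadjusted p under 0.05). SLBP, which binds the stem-loop of replication-dependent histone mRNA, differed by 0.64 in PC3 (adjusted p = 0.138) and by 0.69 in LNCaP (adjusted p = 0.0772). With the replicate number as a block these adjusted p-values were 0.0395 and 0.0162. In PC3 SLBP differed by 0.22 without PC3 GFP replicate 1 and by 1.07, then called, without PC3 GFP replicate 2, and its LNCaP difference was called without either PC3 GFP array. In transcription, NFYB, a subunit of NF-Y, rose by 0.64 in PC3 (adjusted p = 0.0261). That call was lost with the floor, with PC3 fitted alone, and without PC3 GFP replicate 1 (0.52), PC3 Notch1 replicate 1 (0.55) or PC3 Notch1 replicate 2 (0.73). The floor left the NFYB difference unchanged. NPAT, the S phase activator of histone genes, differed by -0.06 in PC3 and 0.14 in LNCaP. None of 4 measured H2A-H2B chaperones was called in either line by limma (1 in PC3 and 0 in LNCaP with an unadjusted p under 0.05).

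S phase genes were listed as context. Of 15, 14 rose in LNCaP (median 1.03), beside 8.01% of all probe sets, and 4 rose in PC3 (median 0.25), beside 4.19%. The 4 in PC3 were RRM2 and, named after their values were seen, CCNE2 (0.66), CDC6 (0.55) and MCM6 (0.48). RRM2, a subunit of ribonucleotide reductase, rose by 2.41 ± 0.108 in LNCaP (adjusted p = 4.76e-07) and by 0.95 in PC3 (adjusted p = 0.000449). CCNA2, the S phase cyclin, rose by 2.09 in LNCaP (adjusted p = 1.61e-05) and differed by -0.17 in PC3. MCM4, of the replicative helicase, rose by 2.04 in LNCaP (adjusted p = 6.90e-06) and TYMS, which makes thymidylate, by 1.11 (adjusted p = 0.000231). PCNA, the sliding clamp, rose by 1.03 in LNCaP (adjusted p = 0.000408) and differed by 0.44 in PC3 (adjusted p = 0.0833, or 0.0383 with the replicate block), at 0.27 without PC3 GFP replicate 1 and called without PC3 GFP replicate 2 (0.61).

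**Figure D4:**
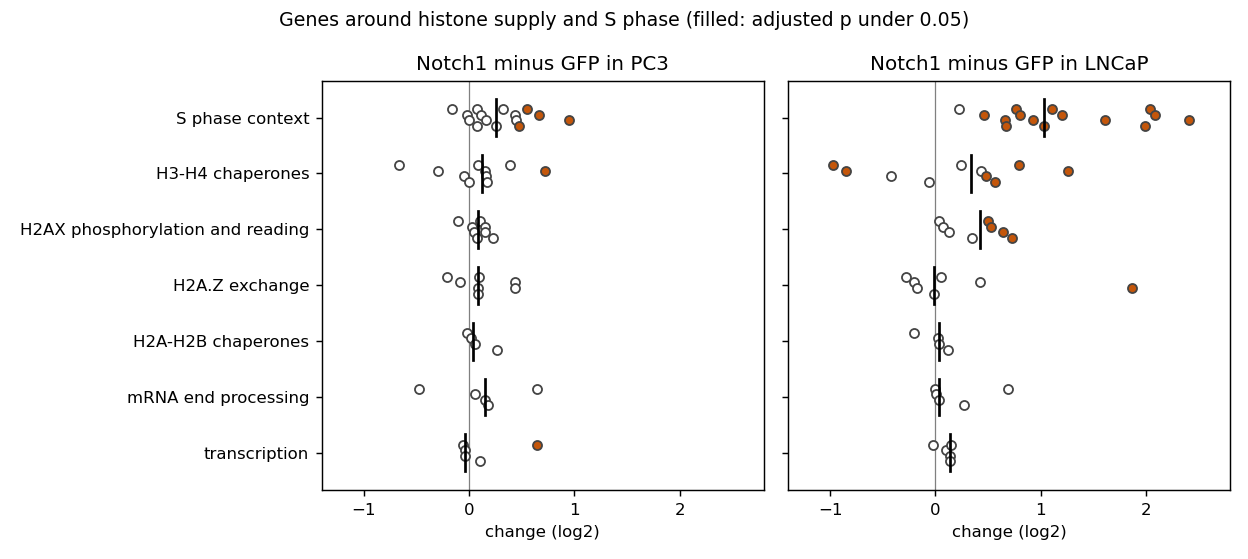
Change with activated Notch1 (log2, horizontal axes) of genes in 7 role groups, in PC3 (left) and LNCaP (right). Each point is a gene, filled where the adjusted p was under 0.05, and bars are group medians. In LNCaP 14 of 15 S phase genes are filled and lie above 0, and the point at 1.86 among H2A.Z exchange genes is ANP32E.

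Across the 8 arrays, the genes whose pattern was most like that of each member were given by Pearson's r over probe sets with a mean of at least log2 5, as a description in which the arrays share the difference between lines. For H2AX these were CDKN2B (r = 0.986) and LIG1 (0.985). For H1-2 they were MTG1 (0.993) and ZNF175 (0.992), and for H2BC21 VPS45 (0.997) and GMFB (0.996). For H1-10 they were ZMYND11 (0.998) and BRD3 (0.998), and for H2AZ1 ADNP (0.988) and RWDD3 (0.985). Of 7313 candidates, an r above 0.9 was reached by 67 for H2AX, 266 for H2AZ1, 518 for H1-2 and 783 for H2BC21. For H1-10 it was reached by 1588 of 7312.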

How the data were processed

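Expression in PC3 and LNCaP cells was measured on Affymetrix U95Av2 arrays (8 arrays, 4 groups of 2). The authors summarised the raw files with RMA and used limma, with versions not given in the sources used here, and deposited log2 values, 1 per probe set and array. Whether both lines were normalised jointly is not stated. Of 12625 probe sets, 67 controls were left out. The annotation gave 10943 of the rest 1 symbol, 545 several and 1070 none. NOTCH1 was not analysed here.

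The deposited values were fitted with limma 3.58.1 in R 4.3.3, with a mean for each group over all 8 arrays (4 residual and 6.37 prior degrees of freedom). Tests were two-sided, with Benjamini-Hochberg adjustment over 12558 probe sets and a call at an adjusted p under 0.05. The p-values measure only the spread between these arrays. Each listed gene was represented by its single-symbol probe set with the highest mean. The text names the members, up to 3 called genes per list with the largest change, a few genes fixed by role, and the 2 genes most like each member. The members and lists were chosen with earlier results of these data known.

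Tried alternatives were median centring, quantile normalisation, a floor at log2 5, a filter on the lowest 25 percent of means, the replicate number as a block, each line alone and leaving out each array. The labels give every group the same replicate numbers, and deviations of same-numbered arrays had correlations of 0.124 to 0.545 over the 6 pairings of groups. The main fit did not use these numbers, and only the replicate block took them to pair the arrays. No source says what they mark. With the block 1507 of all probe sets were called in PC3 and 2871 in LNCaP, against 779 and 2176 in the main fit. On data simulated for the LNCaP comparison (12558 probe sets), the fit recovered 83% of 100 changes of log2 1 and 99% of 100 changes of log2 2, with 9 false calls. All other probe sets were given no change, and the noise was drawn independently. The real LNCaP comparison called 2176, so these figures may not hold for it.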

Additional observations from a re-analysis of the deposited data

Results flagged for a closer look

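For some results a test of the difference itself found a different effect of Notch1 in LNCaP than in PC3 (LNCaP effect minus PC3 effect, limma, adjusted p under 0.05, which 14.2% of all probe sets passed). Among the members, selected on values of these arrays and so only described, these were H1-2 (1.99), H2AX (1.51) and H2BC21 (-1.002). Among the probe sets of several histone genes they were 39969_at (1.83), 33049_at (1.02), 32609_at (-1.23), 286_at (-0.93), 36757_at (-0.83) and 285_g_at (-0.71), of which 33049_at and 285_g_at lay under log2 5 on all 8 arrays. Among genes of histone supply they were ANP32E (1.43), CHAF1A (1.09), BRCA1 (0.66), NASP (0.64), TP53BP1 (0.63), ATRX (-0.85) and ASF1A (-0.93), and in S phase CCNA2 (2.26), MCM4 (1.602), RRM2 (1.46), CDC45 (1.45), CDC6 (1.44), MCM5 (1.21), TYMS (0.86) and MCM7 (0.73). Every PC3 value of H2BC21 and 36757_at was under log2 5, as was every PC3 and LNCaP GFP value of BRCA1. So were the LNCaP GFP values of RRM2 and CDC6 and the LNCaP Notch1 values of ASF1A. Groups of 2 arrays are too small for a search for single arrays that stand apart.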

How the results depend on the processing

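The LNCaP changes of H1-2, H2AX and H2BC21 stayed called in 14 of 14 alternatives, at 1.75 to 1.96, 1.35 to 1.59 and -1.34 to -1.13. Their differences between lines stayed called in 13 of 13. As these genes were selected on the same values, this describes the settings and is no independent support. With the replicate block, 2 other histone genes and 7 supply genes were called in PC3, against 0 and 2 without it. With the floor at log2 5, 1 supply gene was called in PC3, and in LNCaP 0 other histone genes and 7 supply genes (11 without the floor). Over all probe sets the floor left 347 called in PC3 and 1415 in LNCaP, against 779 and 2176. A gene with no value under log2 5 keeps its difference under the floor, so its call changes only through the other probe sets. With each line fitted alone, 1 supply gene was called in PC3. Leaving out 1 array at a time called 0 to 1 member probe sets, 0 to 1 other histone genes and 0 to 5 supply genes in PC3, and 0 to 4 other histone genes and 6 to 13 supply genes in LNCaP.

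Values near 0 changed sign. Quantile normalisation gave -0.053 for 318_at of H1-10 in PC3, 0.083 for the H2AZ1 difference between lines and 0.016 for ASF1A in PC3, and median centring gave 0.036 for ATRX in PC3 and -0.011 for VPS72 in LNCaP. Leaving out 1 array gave -0.43 to 0.16 for the H2AZ1 difference between lines. In PC3 it gave -0.13 to 0.14 for 318_at, -0.14 to 0.041 for ASF1A, -0.26 to 0.25 for ATRX, -0.34 to 0.0089 for CCNA2, -0.12 to 0.0022 for NPAT, -0.0071 to 0.20 for VPS72 and -0.27 to 0.089 for 32609_at. In LNCaP it gave -0.0064 to 0.21 for NFYB, -0.0034 to 0.28 for NPAT and -0.043 to 0.14 for VPS72. The cause was not tested. Signals near background and 2 arrays a group limit low levels most, as for H2BC21 in PC3.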
